A study of Canis lupus familiaris with 24 samples.

Results

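PRRX1 was followed as a single row, ENSCAFG00000015002, of a table of 32704 dog genes. It was chosen by its symbol, without use of its values, and was read in each of 24 stranded mRNA libraries. The cells were MDCK, an epithelial line from dog kidney, as the sublines MDCK-II and MDCK-NBL2. Samples of each subline were taken without treatment at days 0 and 4 and after TGFb at day 4. MDCK-NBL2 cells given TGFb were also sampled at day 4 with a control siRNA (siCTR) or with an siRNA against PRRX1 (siPRRX1), so both siRNA groups carry TGFb. By the labels' phenotype, cells without TGFb are epithelial. TGFb gives partial EMT in MDCK-II and full EMT in MDCK-NBL2, also with siCTR, and siPRRX1 with TGFb is again called partial EMT. Each of the 8 groups had 3 libraries, numbered as replicates in the labels. They are not said to come from separate cultures, so p-values reflect only how far these libraries spread, which may be technical. All samples are cultures of an established line, and how the siRNA was designed or delivered is not given in the sources used here.

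PRRX1 encodes a paired-type homeobox transcription factor of embryonic mesenchyme, known for its part in limb and craniofacial development. In adult tissues it is mainly a gene of fibroblasts and other stromal cells, and kidney tubule epithelium is not a usual site. In epithelial cells it is known as an inducer of epithelial-mesenchymal transition (EMT), the change in which cells give up junctions and polarity and become motile. TGFb, a secreted cytokine that signals through SMAD proteins, is a common trigger of EMT in culture. SNAI1, SNAI2, ZEB1 and ZEB2, zinc finger repressors of epithelial genes, and the TWIST proteins are the other classical factors of the process.

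PRRX1 was a gene of few counts, at 1696 in all libraries together, and 22 of the 24 libraries had at least 1. Levels are given as counts per 1000000 (CPM) on library sizes scaled by TMM, a method that evens out differences in composition. They are not divided by gene length, so they compare libraries and not genes. A change is a log2 fold change with its standard error (SE) from the quasi-likelihood test of edgeR, called at an adjusted p under 0.05 over 12466 tested genes.

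Total counts per library ran from 6134929 to 27567296. Among kidney epithelial markers, the cadherin CDH1 ran from 727 to 1780 CPM, EPCAM from 179 to 664, and the transcription factors PAX8 from 88.6 to 348 and PAX2 from 1.53 to 28.9. The kidney cadherin CDH16 ran from 0 to 20.2 CPM, with no count in any of the 9 TGFb-treated MDCK-NBL2 libraries, and KRT8 and KRT18 could not be read by symbol. Among 6 stromal markers FAP had no count, PDGFRB at most 0.0693 CPM, DCN at most 0.265 and THY1 at most 0.959, while PDGFRA ran from 0.629 to 47.9 CPM and LUM reached 4.8. LUM had 42 counts in MDCK-NBL2 with TGFb (25, 9 and 8) and 0 in the untreated day 4 libraries, and 0 in all MDCK-II libraries. At day 0 it had 6 counts in MDCK-NBL2 replicate 1 and 0 in replicates 2 and 3. In MDCK-NBL2 the rise over untreated day 4 was 42.1-fold with the group at 0 set to 3 counts in all (adjusted p = 0.00255). The lower 95% counting limit of the ratio was 32.8. Without untreated day 4 replicate 2 it was 23.3-fold, with a lower limit of 18.1 (adjusted p = 0.00476). The summed endothelial markers reached at most 0.576 CPM, and of 3 leukocyte markers CD3E had no count, PTPRC at most 0.198 CPM and CD68 0.344 to 2.08 CPM in all 24 libraries. Library MDCK-NBL2 untreated day 4 replicate 2 stood apart from its group. On a first principal component it lay at 44.6, against 6.8 and 5.3 for the other libraries of the group and 55.5 to 63.7 for MDCK-NBL2 with TGFb. Library MDCK-NBL2 day 0 replicate 1 carried 42 genes typical of MDCK-II at a median 10.5% of their MDCK-II level, and the other libraries of that subline at 0.621% or less. PRRX1 fold changes that use one of these libraries, and list counts with TGFb in MDCK-NBL2, are also given without it. The titles also carry 2 library number series, AL26 for most libraries and AL58 for 5: replicate 1 of MDCK-NBL2 with TGFb and replicates 2 and 3 of both siRNA groups.

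PRRX1 was low in untreated MDCK-II cells, near the limit of detection at day 0, and several times higher after TGFb. At day 0 it stood at 0.345, 0.236 and 0.24 CPM in replicates 1, 2 and 3, from 5, 6 and 2 counts. In untreated cells at day 4 it stood at 0.504, 1.03 and 1.39 CPM, from 7, 31 and 12 counts. With TGFb it stood at 3.79, 5.84 and 3.01 CPM, from 42, 160 and 27 counts. The 3 groups of MDCK-II libraries did not overlap, and within each the libraries differed by less than 3-fold.

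MDCK-NBL2 cells held the 4 highest PRRX1 levels of the study, all after TGFb, and also the widest spread within groups. At day 0 the level was 7.07 CPM in replicate 1 against 0.661 and 0.404 CPM in replicates 2 and 3, from 102, 20 and 3 counts. In untreated cells at day 4 it was 0.975, 3.25 and 0 CPM, from 24, 88 and 0 counts, and the count of 0 allows up to 0.344 CPM. With TGFb it was 37.2, 8.89 and 5.71 CPM, from 194, 73 and 38 counts. All treated libraries were above all untreated day 4 libraries, but the lowest treated library lay below day 0 replicate 1.

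The siRNA groups separated completely. With TGFb and siCTR, PRRX1 was at 33.9, 7.35 and 3.88 CPM, from 767, 46 and 24 counts. With TGFb and siPRRX1 it was at 1.11, 0.339 and 0 CPM, from 22, 3 and 0 counts, and the count of 0 allows up to 0.424 CPM. The siCTR libraries overlapped those with TGFb alone, and the siPRRX1 libraries overlapped the untreated ones.

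**Figure D1:**
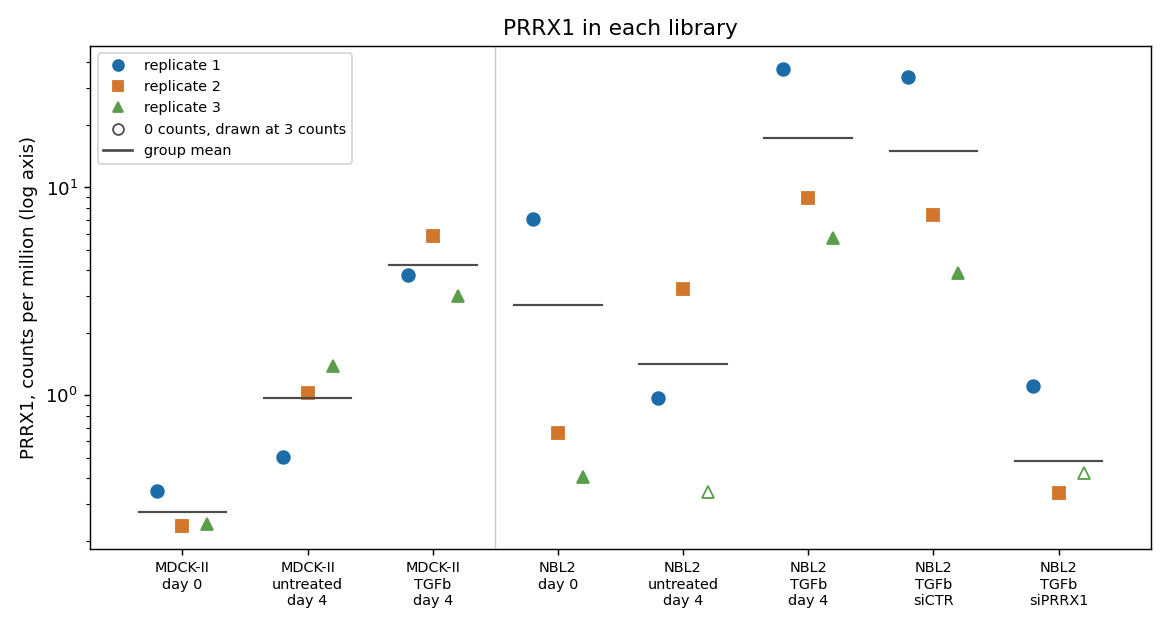
PRRX1 level in CPM (log axis) in each of the 24 libraries, by group, with marker shape and colour for the replicate number and a bar for the group mean; open markers are libraries with 0 counts, drawn at the level of 3 counts. The treated MDCK-NBL2 libraries numbered 1 lie at 37.2 and 33.9 CPM, above all other libraries, and the 3 siPRRX1 libraries lie at or below 1.11 CPM.

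By group mean the order was MDCK-NBL2 with TGFb (17.3 ± 17.3 CPM, SD, n = 3), TGFb and siCTR (15 ± 16.4), MDCK-II with TGFb (4.22 ± 1.46), MDCK-NBL2 day 0 (2.71 ± 3.77), MDCK-NBL2 untreated day 4 (1.41 ± 1.67), MDCK-II untreated day 4 (0.972 ± 0.443), TGFb and siPRRX1 (0.483 ± 0.569) and MDCK-II day 0 (0.274 ± 0.062). Every pair of neighbours in this order overlapped. In all 5 MDCK-NBL2 groups the SD was at least as large as the mean. The biological coefficient of variation of PRRX1, the spread between replicates that edgeR estimates beyond counting error, was 89.7%. The trend for genes of its level was 26.9%, and 0.634% of tested genes had a larger value.

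In 4 of the 5 MDCK-NBL2 groups replicate 1 was highest, and in untreated cells at day 4 it was replicate 2. Replicate 1 had the highest PRRX1 level in all 4 of the day 0, TGFb, siCTR and siPRRX1 groups, by 10.7-, 4.19-, 4.61- and 3.28-fold over the second highest. SNAI2, ZEB1 and ZEB2 were likewise highest in replicate 1 of all 4 groups, as were the matrix protein gene TGFBI and the ligand gene TGFB1. Of all tested genes, 5.21% were highest in replicate 1 of all 4 groups. Replicate 1 was an AL58 library with TGFb alone and an AL26 library in the other 3 groups. It was the shallowest library of its group with TGFb alone, at 6134929 counts, and the deepest with siCTR, at 26655390. Stromal markers other than PDGFRA summed to 5.95 CPM in replicate 1 with TGFb against 1.1 and 1.2 in replicates 2 and 3, and to 2.39, 1.12 and 0.162 CPM with siCTR. LUM alone made up 4.8 of the 5.95 CPM. PDGFRA was at 17.8, 8.53 and 10.4 CPM with TGFb, highest in replicate 1. With siCTR it was at 8.39, 9.11 and 9.54 CPM, lowest in replicate 1. FAP had no count in any of these libraries, and the part of other cells in the PRRX1 spread was not tested. In bulk libraries, more PRRX1 per cell and more cells with PRRX1 cannot be told apart.

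The first comparison asked what TGFb did to PRRX1 in each subline. In MDCK-NBL2 the transcript rose by 3.41 ± 1.02 on the log2 scale (edgeR adjusted p = 0.0108, 95% interval 1.29 to 5.53), or 10.6-fold, against untreated cells of the same day. In that comparison 44.3% of tested genes were called, 21% as higher and 23.4% as lower. In MDCK-II the value was 2.18 ± 1.08 (adjusted p = 0.155, 95% interval -0.07 to 4.43), which was not called, although the groups did not overlap. There 21.1% of tested genes were called, 11.8% as higher and 9.27% as lower. The MDCK-II samples were taken as paired by their numbers. With a replicate block in those 2 groups alone the value was 2.24 and was called (adjusted p = 0.00987). With that block over all libraries it was 2.22 and was not (adjusted p = 0.0881).

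The call of the MDCK-NBL2 rise depended on 1 treated library and on the fit. It was lost in 5 of 16 alternatives, among them the compared groups fitted alone with every library kept. Without TGFb replicate 1, the value was 2.21 (adjusted p = 0.103), and within the AL26 series, which leaves out the same library, it was 2.2 (adjusted p = 0.0977). Without the untreated library that stood apart it was 4.69 (adjusted p = 0.0038). The direction was the same in each of these fits.

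The difference between the responses, MDCK-NBL2 minus MDCK-II, was 1.23 ± 1.46 on the log2 scale (adjusted p = 0.678, 95% interval -1.82 to 4.29), and 5.7% of genes were called. The interval holds both no difference and a larger rise in MDCK-NBL2 by several log2 units. The difference was 2.5 without the untreated library that stood apart (adjusted p = 0.292). Leaving out replicate 1 of both MDCK-NBL2 groups, a choice made after the data were seen, gave -0.26 (adjusted p = 0.971). Between the treated groups themselves, MDCK-NBL2 stood above MDCK-II by 1.98 ± 0.95 (adjusted p = 0.0964) with overlapping groups, where 45.9% of genes were called. In the fit of those 2 groups alone it was 1.91 and was called (adjusted p = 0.028). Without MDCK-NBL2 TGFb replicate 1 it was 0.77 (adjusted p = 0.579).

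Against day 0, PRRX1 was higher after TGFb in both sublines. In MDCK-II the change was 3.95 ± 1.29 (adjusted p = 0.0236) and the groups did not overlap, with 36.2% of genes called. This call was lost without any 1 of the 3 day 0 libraries, or without treated replicate 2, at values from 3.61 to 4.14. In MDCK-NBL2 it was 2.62 ± 0.99 (adjusted p = 0.029), with overlap and with 58.2% of genes called. Leaving out day 0 replicate 1, the library with MDCK-II genes, gave 4.84 (adjusted p = 0.00255). Leaving out TGFb replicate 1 gave 1.41 (adjusted p = 0.266), and leaving out day 0 replicate 2 or 3 gave 2.08 (adjusted p = 0.114) or 2.20 (adjusted p = 0.0959).

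Culture without TGFb moved PRRX1 by less than the test could resolve. From day 0 to day 4 the value was 1.77 ± 1.44 in MDCK-II (adjusted p = 0.451), where the groups did not overlap and 9.81% of genes were called. In MDCK-NBL2 it was -0.79 ± 1.01 (adjusted p = 0.59), where 17.7% were called, and it turned to 1.43 without day 0 replicate 1 (adjusted p = 0.399) and was -2.07 without the untreated day 4 library that stood apart (adjusted p = 0.265). The untreated sublines differed by 3.30 ± 1.32 at day 0, higher in MDCK-NBL2 (adjusted p = 0.0673, 28.5% called), with groups that did not overlap. Day 0 replicate 1 carried most of that: without it the value was 1.08 (adjusted p = 0.655). Its 7.07 CPM of PRRX1 lay above every MDCK-II library, of which the highest was 5.84 CPM with TGFb. At day 4 the untreated sublines differed by 0.74 ± 1.10 (adjusted p = 0.633, 36.3% called), which turned to -0.54 (adjusted p = 0.803) without MDCK-NBL2 replicate 2.

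**Figure D2:**
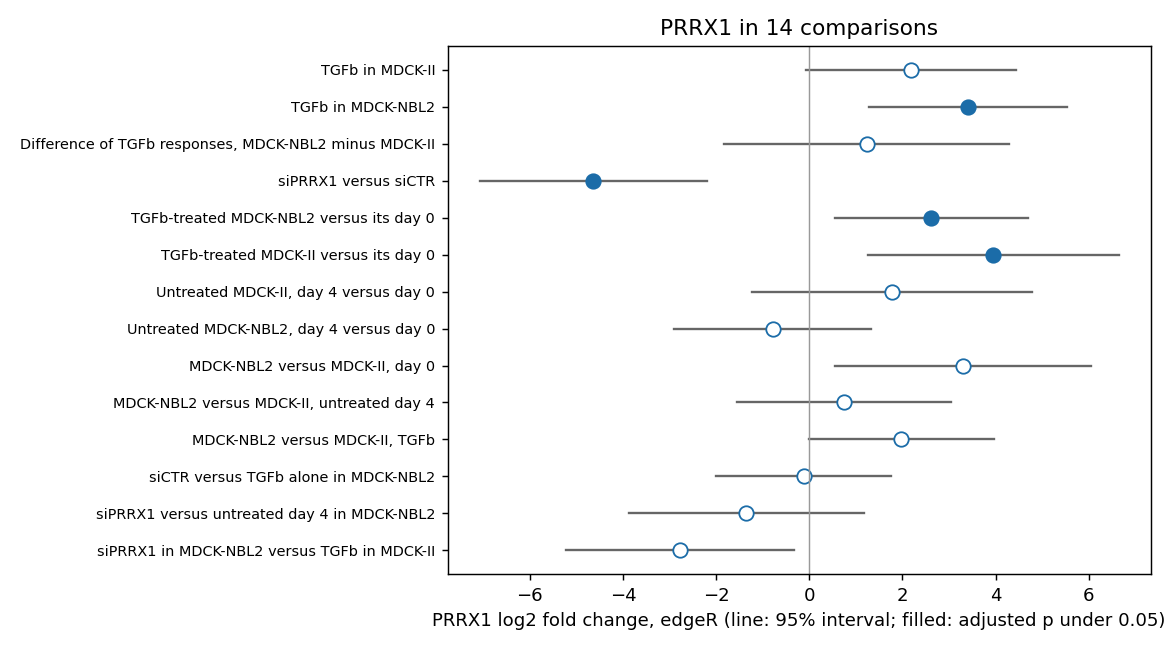
PRRX1 log2 fold change in 14 comparisons, with lines for the 95% interval of the edgeR fit over all libraries and filled circles for an adjusted p under 0.05. The siPRRX1 value of -4.64 and 3 of the TGFb values are called, and the intervals span several log2 units throughout.

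The siRNA comparison checks the labels, since siPRRX1 targets the gene itself. PRRX1 fell by 4.64 ± 1.17 on the log2 scale between siCTR and siPRRX1 (adjusted p = 0.0435, 95% interval -7.07 to -2.20), which is 24.9-fold. Among tested genes 2% were called, 0.81% as higher and 1.19% as lower, and PRRX1 ranked 12 of 12466 by the size of its change. Relative to the siCTR library with the same number, 3.28% of the transcript was left in replicate 1 (95% counting interval 2.04 to 5), which compares AL26 libraries. In replicate 2 4.61% was left (0.918 to 14.3), and in replicate 3 none was counted (0 to 14.5), both within AL58. The 3 pairs thus gave low values in both library series, although their starting levels differed by 8.73-fold.

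The call itself was less firm than the size. The numbers were taken to pair the siRNA libraries from correlations in these data, which the labels do not state. With the block in those 2 groups alone the value was -4.91 (adjusted p = 5.21e-05). Replicate 1 is AL26 and replicates 2 and 3 are AL58 in both groups, so the block also takes up the series. Leaving out any 1 of the 6 libraries gave -6.33 to -3.18 with adjusted p from 0.0562 to 0.302, so the call was lost each time. The smallest of these falls was without siCTR replicate 1, at -3.18 (adjusted p = 0.302). With the library number series as a term it was -4.59 (adjusted p = 0.0589).

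The control siRNA left PRRX1 at -0.12 ± 0.90 of TGFb alone (adjusted p = 1, 95% interval -2 to 1.76). No gene was called there, 0% by edgeR, with 212 at an unadjusted p under 0.05, and DESeq2 called 0 as well. The value turned to 2.22 within AL26, where 1 siCTR library met 2 with TGFb alone, and to 1.08 without TGFb replicate 1. Cells with siPRRX1 differed from untreated MDCK-NBL2 cells of day 4 by -1.35 ± 1.21 (adjusted p = 0.386, 42% called), or by -0.03 without the library that stood apart (adjusted p = 0.989). They differed from TGFb-treated MDCK-II cells by -2.78 ± 1.17 (adjusted p = 0.0595, 45.3% called). The latter groups, both called partial EMT in the labels, did not overlap in PRRX1. The value was -2.76 and was called in the fit of those groups alone (adjusted p = 0.00295), as it was without the untreated library that stood apart (-2.76, adjusted p = 0.0461).

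The other EMT transcription factors were read beside PRRX1 from a list of 14, of which 9 were tested. TWIST1 could not be read by symbol, and TWIST2 had 39 counts in all libraries together, too few to test. In MDCK-II with TGFb, 5 of the 9 rose and none fell, where 11.8% of all tested genes were called higher. PRRX2, the closest paralog of PRRX1, rose by 2.45 ± 0.46 (adjusted p = 0.00147), ZEB1 by 3.41 ± 0.82 (adjusted p = 0.00722) and SNAI1 by 1.27 ± 0.34 (adjusted p = 0.0133). TCF3, a helix-loop-helix factor, rose by 0.47 ± 0.14 (adjusted p = 0.0212). ZEB2 also rose (adjusted p = 0.035), but from a single count: its count ratio was 54.5 with a 95% counting interval of 9.34 to 2200. The list median was 1.27, beside -0.03 over all tested genes. With the replicate block in those groups, 6 of 8 tested rose, among them SNAI2 at 1.63 (adjusted p = 0.0105), where 28.4% of genes were called, 15.7% as higher.

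In MDCK-NBL2, 2 of the 9 rose with TGFb and 1 fell, where 44.3% of all tested genes were called. ZEB1 was at 0.122, 1.48 and 0.459 CPM untreated and at 12.3, 4.02 and 4.36 CPM with TGFb, a rise of 3.18 ± 0.84 (adjusted p = 0.00513). SNAI2 was at 5.52, 53.7 and 9.52 CPM untreated and at 148, 143 and 107 CPM treated, a rise of 2.51 ± 0.67 (adjusted p = 0.00564). Both were highest among the untreated libraries in replicate 2, as PRRX1 was. SOX9, a factor of epithelial progenitors and cartilage, fell by 0.98 on the log2 scale (SE 0.32, adjusted p = 0.0197). Its groups overlapped, at 117, 56.3 and 39.6 CPM untreated and 40.3, 43 and 25.3 CPM with TGFb. Treated cells against day 0 gave 0.36 ± 0.33 for SOX9 (adjusted p = 0.35). Against untreated day 4 cells, SNAI1 had a value of -0.26 ± 0.32 (adjusted p = 0.536) and PRRX2 of 0.89 ± 0.41 (adjusted p = 0.0837). The list median was 0.58, beside -0.04 over all genes.

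Without the untreated library that stood apart, 6 of 10 tested rose and 1 fell in MDCK-NBL2, where 54.8% of genes were called, 27.1% as higher. PRRX2 then rose by 1.80 ± 0.33 (adjusted p = 0.000128) and SOX4, a factor induced by TGFb in many epithelia, by 1.55 ± 0.41 (adjusted p = 0.00345). ZEB2 rose too (adjusted p = 0.00116), from 1 untreated count, at a count ratio of 76.4 with an interval of 13 to 3080. No factor on the list differed between the sublines' responses in edgeR over all libraries, where 5.7% of genes were called. SNAI1 was the nearest at -1.53 ± 0.47 (adjusted p = 0.0581). There 4 of 9 were below an unadjusted p of 0.05, and DESeq2 called 1. Without the library that stood apart, 1 of 10 was higher and 1 lower, where 21.1% of genes were called.

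**Figure D3:**
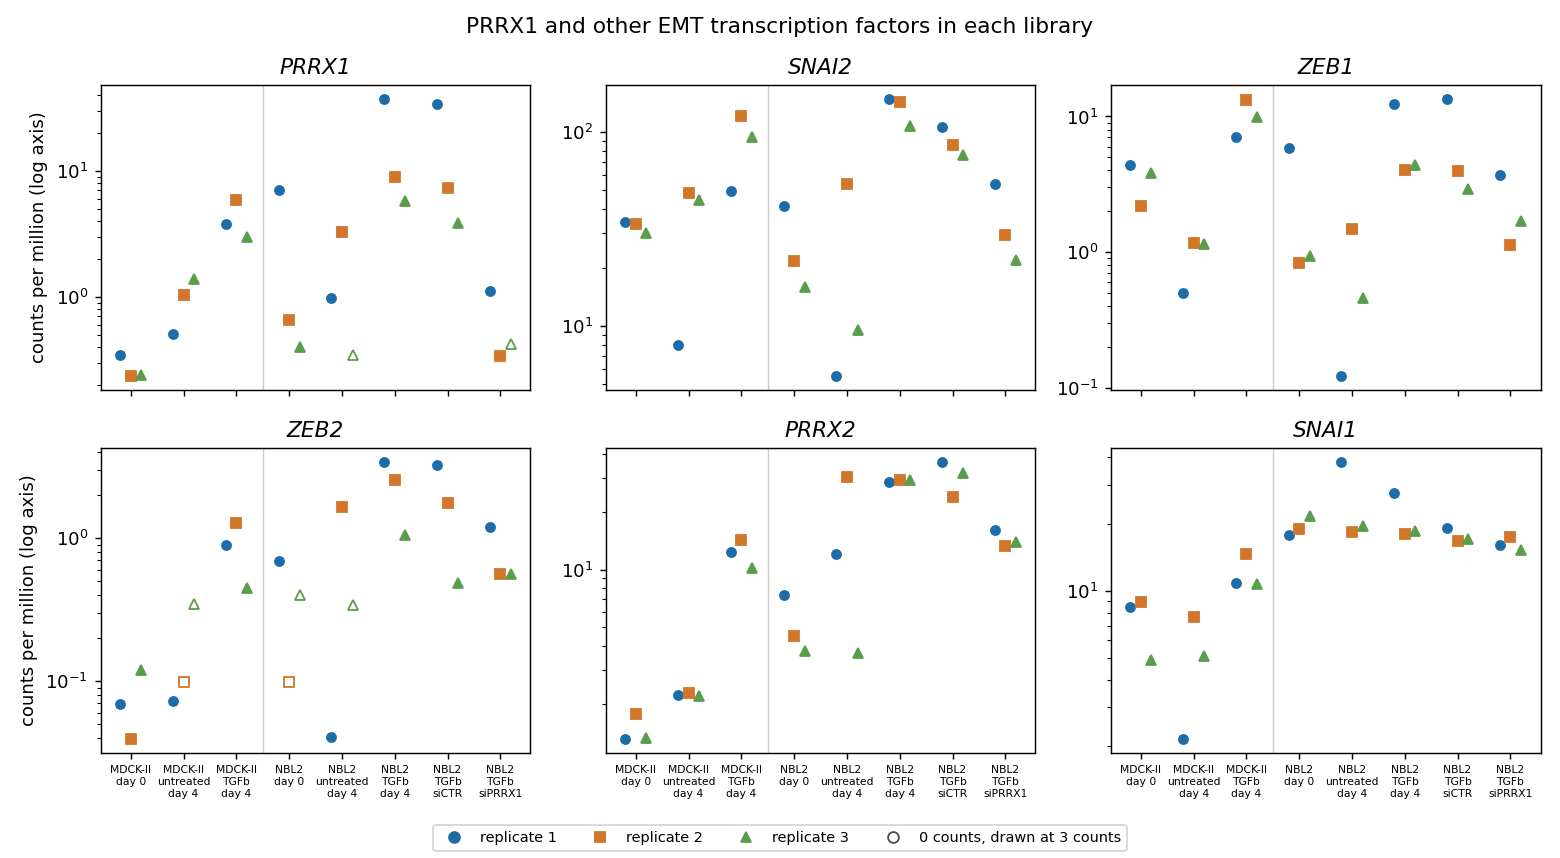
CPM (log axis, scales differ between panels) of PRRX1 and 5 other EMT transcription factors in each library, with open markers at the level of 3 counts for libraries with 0 counts. PRRX1, SNAI2, ZEB1 and ZEB2 are highest in replicate 1 of the MDCK-NBL2 day 0, TGFb, siCTR and siPRRX1 groups, and SNAI1 in MDCK-NBL2 lies in the same range with and without TGFb.

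With siPRRX1, none of the 9 factors was called by edgeR over all libraries, nor by DESeq2, and 2 were below an unadjusted p of 0.05. In that edgeR fit 2% of all tested genes were called, so none of 9 says little about the factors. PRRX2 was at 36.5, 24 and 31.7 CPM with siCTR and at 16.1, 13.2 and 14 CPM with siPRRX1, a value of -1.09 ± 0.41 (adjusted p = 0.202). SNAI2 was at 106, 85.6 and 76.4 CPM against 53.9, 29.3 and 21.8 CPM, a value of -1.34 ± 0.65 (adjusted p = 0.349). Neither gene's groups overlapped, and each siPRRX1 library was below its siCTR partner.

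These calls differed in the fit of the siRNA groups alone. With the replicate block in the siRNA groups alone, PRRX2 fell by 1.09 on the log2 scale (SE 0.11, adjusted p = 0.000314). SNAI2 fell by 1.37 (SE 0.14, adjusted p = 0.000337) and ZEB1 by 1.66 (SE 0.25, adjusted p = 0.00233), so that 3 of 8 tested factors were called, all lower. In that fit 22.5% of 11239 tested genes were called, 12.2% as lower. With the block over all libraries none of the 3 was called, at adjusted p of 0.17, 0.329 and 0.308. In the siRNA groups alone without the block, PRRX2 and SNAI2 were called and ZEB1 was not. Without the untreated library that stood apart, 1 of 10 factors fell, PRRX2, by 1.09 (adjusted p = 0.027), where 5.21% of genes were called, 3.24% as lower.

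By pair, PRRX2 was left at 44.1%, 55.2% and 44.1% of its siCTR level, SNAI2 at 50.8%, 34.2% and 28.5% and ZEB1 at 27.3%, 28.3% and 58.2%. ZEB2, at low levels, stood at 37.1%, 32.1% and 116%. SNAI1 stood at 83.2%, 104% and 89%, and SOX4 at 117%, 84.2% and 104%. SNAI1 had a log2 value of -0.13 ± 0.33 (adjusted p = 0.924) over all libraries. PRRX1 was left at a smaller share than any of these in every pair, and in the third pair its 0 counts have a 95% counting interval up to 14.5%. PRRX1 and PRRX2 have closely related homeodomains, and whether the authors' counting could split reads between them is not given in the sources used here.

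**Figure D4:**
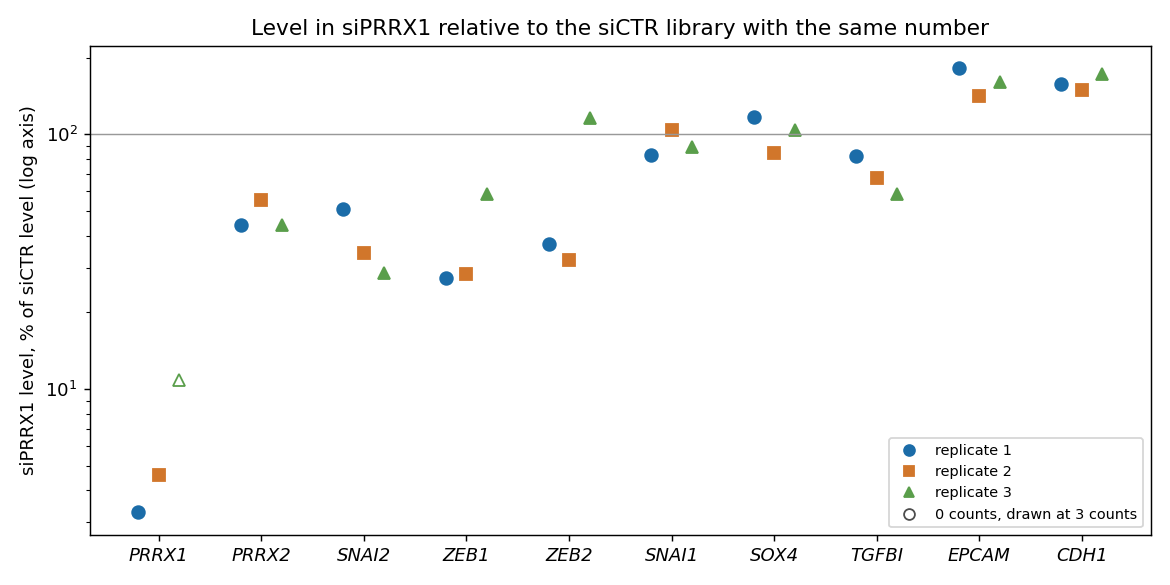
Level in each siPRRX1 library as a percent of the siCTR library with the same number (log axis), with a line at 100% and an open marker where PRRX1 had 0 counts, drawn at 3 counts. PRRX1 is at 3.28% and 4.61% in replicates 1 and 2, PRRX2 between 44.1% and 55.2%, SNAI1 and SOX4 on both sides of the line, and the epithelial genes EPCAM and CDH1 above it at 141% or more.

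The epithelial genes CDH1 and EPCAM were higher in every siPRRX1 library than in its siCTR partner. CDH1, the cadherin of adherens junctions, rose with siPRRX1 by 0.68 ± 0.16 (adjusted p = 0.0327), from 852 ± 109 to 1360 ± 201 CPM (SD, n = 3). EPCAM, an epithelial adhesion molecule, stood at 179, 336 and 282 CPM with siCTR and at 325, 472 and 453 CPM with siPRRX1, a value of 0.65 ± 0.20 (adjusted p = 0.109). With the replicate block in these groups it was 0.69 and was called (adjusted p = 0.000661). Of 6 tested kidney epithelial markers, 1 rose and none fell over all libraries, beside 0.81% of genes called higher. Their median was 0.32, beside 0 over all genes. Stromal markers other than PDGFRA summed to between 0.162 and 2.39 CPM with siCTR and between 0.226 and 1.26 CPM with siPRRX1. PDGFRA was at 8.39, 9.11 and 9.54 CPM with siCTR and at 6.71, 5.54 and 6.92 CPM with siPRRX1, and was not called.

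Of 9 early TGFb target and feedback genes, 8 were tested and serve as a reading of the cytokine itself. In MDCK-II 5 rose and none fell, beside 11.8% of all tested genes called higher, among them the feedback inhibitor PMEPA1 by 2.97 ± 0.40 (adjusted p = 0.000121) and the inhibitory SMAD7 by 3.38 ± 0.51 (adjusted p = 0.000277). In MDCK-NBL2 only LTBP2, which stores latent TGFb in the matrix, was called, by 4.67 ± 0.64 (adjusted p = 6.07e-05), where 44.3% of genes were called. Without the untreated library that stood apart 7 of 8 rose, beside 27.1% of genes called higher. With siPRRX1 in the same fit 1 of 8 fell, PMEPA1 (adjusted p = 0.0125), beside 5.21% of genes called, 3.24% as lower. SMAD7 was at 45.7 CPM in that library against 9.38 and 5.39 CPM in the others of its group. The same library held the highest PRRX1 level of the group, at 3.25 CPM. Over all libraries none of the 8 was called with siPRRX1 by edgeR or DESeq2, and none was below an unadjusted p of 0.05. Of all tested genes edgeR called 2% there. With the replicate block in the siRNA groups 4 of 8 fell, among them PMEPA1 by 0.56 (adjusted p = 0.000637), CCN2 by 0.61 (adjusted p = 0.00376) and TGFBI by 0.54 (adjusted p = 0.0122), beside 22.5% of genes called.

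Other homeobox genes of the paired type and of limb mesenchyme were mostly low. ALX1 and ALX4 had no count in any library, and 7 of 12 genes were tested. In MDCK-II, PRRX2 and MEOX1 rose, 2 of 7 beside 11.8% of all tested genes, MEOX1 (adjusted p = 0.00893) at a count ratio of 21.1 with an interval of 5.46 to 181. In MDCK-NBL2, 3 of 7 rose and none fell, beside 21% of genes called higher: PITX1 by 2.12 ± 0.55 (adjusted p = 0.00465), MSX2 by 1.33 ± 0.36 (adjusted p = 0.00586) and SHOX2 by 1.64 ± 0.46 (adjusted p = 0.00774). PITX1, MSX2 and SHOX2 are regulators of limb patterning and growth. With the untreated library that stood apart left out 5 of 7 rose, beside 27.1%. With siPRRX1 none of the 7 was called by edgeR, beside 2% of genes, or by DESeq2, and 2 were below an unadjusted p of 0.05. With the replicate block in the siRNA groups 1 of 5 was called, PRRX2, beside 22.5% of genes. The medians were 0.77 in MDCK-II, 0.89 in MDCK-NBL2 and -0.41 with siPRRX1, beside -0.03, -0.04 and 0.

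Genes linked to PRRX1 as targets or partners in other tissues were read next, and not all had enough counts to test. Of 7 such genes 3 were tested: SNAI1, SOX9 and FOXM1, a driver of cell division genes. FOXM1 fell by 2.90 on the log2 scale in MDCK-NBL2 with TGFb (SE 0.56, adjusted p = 0.000478), and by 3.39 without the untreated library that stood apart (adjusted p = 2.62e-07), and had a value of -0.84 ± 0.61 with siPRRX1 (adjusted p = 0.575). The matrix gene TNC, a known target in fibroblasts, had 22 counts in all. All of them lay in MDCK-NBL2 libraries with TGFb alone (5, 0 and 2 counts) or with siCTR (12, 1 and 2 counts). The 3 siPRRX1 libraries had 0 counts, and the count ratio to siCTR had an upper 95% counting limit of 0.274. The growth factor HGF had 12 counts in all and DRD2 none. With siPRRX1 none of the 3 tested genes was called by edgeR or DESeq2 or passed an unadjusted p of 0.05, where edgeR called 2% of genes.

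The genes beside PRRX1 in the RefSeq dog annotation, on assembly UU_Cfam_GSD_1.0, were read to see whether the locus moved as a block. The 10 neighbours were the nearest 5 on each side whose symbol was in the table, and 5 were tested. RefSeq genes without a matching symbol were passed over, so the locus was read only in part. In MDCK-II none was called by edgeR, beside 21.1% of genes, or by DESeq2, and 1 was below an unadjusted p of 0.05. In MDCK-NBL2 FMO4, a flavin monooxygenase, rose by 1.78 ± 0.35 (adjusted p = 0.00053) and KIFAP3, a kinesin adaptor, by 0.91 ± 0.13 (adjusted p = 5.37e-05), while C7H1orf112 fell by 1.06 (SE 0.34, adjusted p = 0.0164), 3 of 5 where 44.3% of genes were called. Once the untreated library that stood apart was left out, 4 of 5 rose and 1 fell, where 54.8% were called. With siPRRX1 none of the 5 was called by edgeR over all libraries, beside 2% of genes, or by DESeq2. There 1 was below an unadjusted p of 0.05. With the replicate block in the siRNA groups, KIFAP3 (-0.26, adjusted p = 0.0355) and GORAB (-0.44, adjusted p = 0.0454) were called, 2 of 5 beside 22.5% of genes. GORAB is a Golgi protein gene. RefSeq also places a long noncoding RNA, LOC102156399, within the span of PRRX1, which could not be read by symbol in the table. The strand setting of the counting is not given in the sources used here.

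Genes with the pattern most like PRRX1 were ranked by the Pearson correlation of log2 CPM over the 24 libraries, among 10732 tested genes with a symbol. The libraries share their treatment groups, so the values are a description. LARP6, an RNA-binding protein of collagen messages, came first at 0.85. ANO10 followed at 0.83, STARD13 at 0.81, GOLGA3, LRRC8A and NMT2 at 0.80, and TANC2, SH3RF3, ARPC5 and HR at 0.79. The 95th percentile of all genes was 0.59 and the 99th was 0.70. The lowest were LDHB and EMC9 at -0.84, SMIM31 at -0.82, MTA2 at -0.81 and PCBD1 at -0.79. Among the listed genes ZEB2 stood at 0.77, SNAI2 at 0.76, PRRX2 at 0.68, ZEB1 at 0.67, SNAI1 at 0.32 and EPCAM at -0.78.

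This ranking includes the knockdown, in which PRRX1 was lowered by design, so it favours genes that fell with it. Over the 18 libraries without siRNA none of those 10 genes stayed among the 10 highest. Their correlations with PRRX1 there still ran from 0.76 for ARPC5 to 0.89 for TANC2, so the ranks moved more than the values. There the highest were KLF10, an early TGFb response factor, at 0.92, SLC20A1 and TMEM63B at 0.91, RUNX1, ERN1 and KIF1B at 0.90, and UBR4, TULP4 and ARL6IP5 at 0.89, with 1 further gene of the 10 not reported here. The lowest were SPICE1 at -0.91, PCNP at -0.90, and MRPL49, TAF1B and TFAM at -0.89. The siRNA libraries took no part in choosing these genes.

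None of the 9 highest reported here was called by edgeR with siPRRX1, where 2% of all tested genes were called, so this says little. Their log2 values ran from -0.37 to 0.18, with a median of -0.21 and a smallest adjusted p of 0.578. These figures do not cover the gene left out of the 10. RUNX1, a runt domain transcription factor, had the lowest value, at 22.4 ± 3.35 CPM with siCTR and 17.4 ± 0.83 CPM with siPRRX1 (SD, n = 3). KLF10 stood at 102 ± 2.65 and 87.6 ± 7.85 CPM. The siRNA groups did not overlap for KLF10, RUNX1 and ARL6IP5, lower with siPRRX1, or for KIF1B, higher with it. These values stand beside the fall of PRRX1 itself by 4.64 on the log2 scale.

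**Figure D5:**
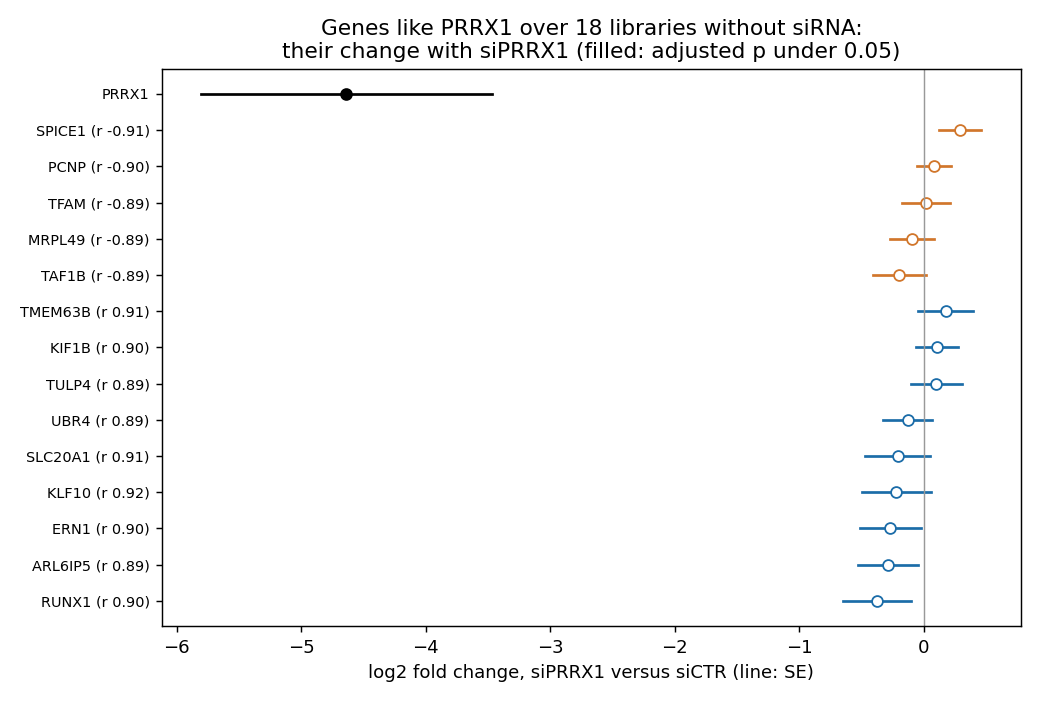
Log2 fold change between siPRRX1 and siCTR (circles, lines for the SE) for 9 of the 10 genes with the highest and the 5 with the lowest correlation r with PRRX1 over the 18 libraries without siRNA, beside PRRX1 itself. PRRX1 lies at -4.64 and is called, and the 14 other genes lie between -0.37 and 0.29, none of them called. Over all tested genes 2% were called.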

How the data were processed

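The authors deposited 1 table of whole-number counts per gene, with no normalization, for 24 libraries in 8 groups of 3. STAR 2.5.3a, RSEM 1.3.0, FastQC and the dog build CanFam3.1 are named in the submitters' processing notes. The sources used here give neither their roles nor the annotation release, strand setting or any rounding of estimates. RefSeq positions belong to another assembly, so none is printed. Columns were matched to samples by title, and 1 row holds PRRX1. No sequence is shown.

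All 24 libraries were fitted in edgeR 4.0.16 (R 4.3.3) with a mean per group, TMM scaling and filterByExpr (minimum count 10, total 15), leaving 12466 genes and 16 residual degrees of freedom. P-values were adjusted by Benjamini-Hochberg over all of them, and SE is |log2 fold change| divided by √F. A count of 0 is read as up to 3 counts. Counting intervals are exact (95%) and cover counting error only. Correlations used a prior count of 2. The fit was tested on simulated data. Some genes are not reported here, while counts over lists still include them.

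PRRX1, the gene lists and the tests were chosen with earlier results of these data known. Lists were reported by counts and by up to 4 members with the smallest adjusted p, with SNAI1 and TWIST1 always looked for; other members and the levels of epithelial and stromal markers were chosen after their values were seen. Alternatives were DESeq2 1.42.0, its size factors, no filter, a replicate block, library number series, the groups compared alone and libraries left out.

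The numbers were taken to pair samples where deviations from the group means correlated above 0.1 in every pair. They did with TGFb in MDCK-II (0.42, 0.25 and 0.3) and for siPRRX1 versus siCTR (0.34, 0.19 and 0.16), and not in the other comparisons.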

Additional observations from a re-analysis of the deposited data

Results flagged for a closer look

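The TGFb response differed between the sublines, by the edgeR test of the difference (MDCK-NBL2 minus MDCK-II, log2), for the listed genes given here. MEOX1 stood at -4.27, and at -3.52 (adjusted p = 0.0298) without the library MDCK-NBL2 untreated day 4 replicate 2. SMAD7 stood at -2.40 and PMEPA1 at -2.10, and without that library at -0.98 (adjusted p = 0.0154) and -0.94 (adjusted p = 0.00193). KIFAP3, a neighbour of PRRX1, stood at 0.76, and at 0.94 (adjusted p = 0.000564) without it. PRRX1 itself had a difference of 1.23 that was not called.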

How the results depend on the processing

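Over 14 comparisons of PRRX1, 218 alternative values were computed: 173 kept both direction and side of the threshold, 23 lost the call, 13 gained it and 9 turned the sign, none of these 9 in a called comparison. Among listed genes, 811 of 891 kept direction and side, 43 lost the call, 37 gained it and 0 turned. PRRX1 had 13 to 837 counts per group and a spread between replicates beyond counting error of 89.7%.

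Where the numbers were taken to pair samples, the replicate block in the groups compared alone gave 2.24 (adjusted p = 0.00987) with TGFb in MDCK-II. The same fit without the block gave 2.19 (adjusted p = 0.0122). Where samples share only a number, the block in the groups alone gave 3.76 (adjusted p = 0.077) with TGFb in MDCK-NBL2, 1.66 (adjusted p = 0.0214) between the treated sublines, and -2.87 (adjusted p = 0.00635) for siPRRX1 against TGFb in MDCK-II. The block over all libraries gave -3.34 (adjusted p = 0.0137) for the last. The block changed no other call of PRRX1.

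In the groups compared alone, without the block, PRRX1 was at 3.47 (adjusted p = 0.0859) with TGFb in MDCK-NBL2, 2.57 (adjusted p = 0.0529) against its day 0, 1.91 between the treated sublines, -2.76 for siPRRX1 against TGFb in MDCK-II and 0.0133 for siCTR against TGFb alone. Within AL26 it was at 2.2, at -4.93 for siPRRX1 (adjusted p = 1, 1 library against 1 with the spread pooled over the other groups), at 1.39 against MDCK-NBL2 day 0, at 3.34 (adjusted p = 0.0448) between sublines at day 0 and at 2.22 for siCTR against TGFb alone. With the series as a term siPRRX1 gave -4.59. Without MDCK-NBL2 untreated day 4 replicate 2, the untreated sublines gave -0.54 at day 4 and siPRRX1 against TGFb in MDCK-II -2.76. With MDCK-NBL2 replicates 2 and 3 only, chosen after seeing the data, TGFb gave 1.92 (adjusted p = 0.23), siPRRX1 -4.86 (adjusted p = 0.273) and the difference of responses -0.26. DESeq2 gave 3.32 (adjusted p = 0.0324) between sublines at day 0 and -3.06 (adjusted p = 0.0322) for siPRRX1 against TGFb in MDCK-II. The cause of these shifts was not tested.

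Leaving out each library in turn gave ranges of 2.21 to 4.69 with TGFb in MDCK-NBL2, -6.33 to -3.18 for siPRRX1 against siCTR, 1.41 to 4.84 and 3.61 to 4.14 against day 0 in MDCK-NBL2 and MDCK-II, -2.07 to 1.43 from day 0 to day 4 in MDCK-NBL2, 1.08 to 3.84 and -0.54 to 1.16 between untreated sublines at day 0 and day 4, -1.60 to 1.08 for siCTR against TGFb alone, and -4.47 to -2.40 for siPRRX1 against TGFb in MDCK-II.

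Gene lists called more members with the replicate block in the siRNA groups alone (EMT factors 3, TGFb targets 4, neighbours 2, homeobox genes 1, against 0 each over all libraries). Genes called in all went from 249 to 2528 there, to 1159 without the block, to 163 without a filter on low counts, to 463 in DESeq2 and to 655 without the library that stood apart. Of the 10 genes ranked most like PRRX1, 7 stayed among the 10 highest with a prior count of 0.5, 4 over the 8 group means, 3 by Spearman rank and 0 over 18 libraries without siRNA, and 10 stayed without the library that stood apart.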
